A study of Mus musculus with 6 samples.

Results

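The peptide hormone genes of the non-beta islet cells were followed through 3 populations sorted from mouse islets. The 5 genes, chosen by symbol, were Gcg, Sst, Ppy, Pyy and Ghrl, out of 46959 rows of the deposited table. All mice were bitransgenic, carrying Ins1-H2b-mCherry, in which the Ins1 gene drives a nuclear red reporter, and Ucn3-eGFP, in which the Ucn3 gene drives a green one. Immature beta cells were positive for mCherry alone, mature beta cells for both reporters, and double negative cells, which are the non-beta cells of the same islets, for neither. The islets came from adult animals, were pooled from several animals per library, and were cultured overnight before the sort. Each population had 2 libraries, of which replicate 1 is labelled male and replicate 2 female, although the series' own description speaks of pools of females. Values are RPKM, reads scaled by gene length and library size, so levels can be set side by side between genes.

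Each endocrine cell of the islet is known mainly for 1 hormone. Glucagon, from alpha cells, raises blood glucose, and somatostatin, from delta cells, restrains both insulin and glucagon release. Pancreatic polypeptide, from PP cells, and peptide YY belong to the neuropeptide Y family and reduce appetite and exocrine secretion. Ghrelin, made mostly in the stomach, marks the rare epsilon cells, which are abundant in the islet only before birth. Each hormone is cut from a longer precursor by prohormone convertases, and Gcg also encodes the glucagon-like peptides.

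The 5 genes lie on 4 chromosomes (GRCm38, GENCODE M21, all on the minus strand). Gcg (ENSMUSG00000000394.15) spans chr2:62474530-62483650 and Sst (ENSMUSG00000004366.4) spans chr16:23889573-23890958. Ppy (ENSMUSG00000017316.13) at chr11:102099930-102101319 and Pyy (ENSMUSG00000017311.15) at chr11:102106676-102107832 are neighbours, with 5356 bases and 0 annotated genes between them. Ghrl (ENSMUSG00000064177.8) spans chr6:113716119-113719880 and is overlapped on the other strand by 2 predicted genes, Gm26982 and Gm44033. Gm26982, at chr6:113714971-113716121, meets Ghrl only at its edge. Gm44033, at chr6:113718584-113719278, lies inside the Ghrl span and has no row of values. The library kit is not stated to keep strand, so only reads from the shared bases cannot be told apart. The longest stretch shared exactly by transcripts of any pair of the 5 genes was 11 bases, and Ppy and Pyy shared at most 10.

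The promoters of the 4 abundant hormone genes are shown because the neighbours Ppy and Pyy had the most similar profiles of the 5 genes across the libraries, apart from those of Gcg and Sst. The windows hold the 250 bases before the RefSeq start (GRCm38.p6, first start listed), on the minus strand, 5′ to 3′: chr2:62483654-62483903 for Gcg, chr16:23890845-23891094 for Sst, chr11:102101320-102101569 for Ppy and chr11:102107833-102108082 for Pyy. GENCODE M21 sets the start of Sst further upstream, inside this window. Capitals mark TATAAA or TATAAG, searched on the sense strand, and TGACGTCA, the cAMP response element, which reads the same on both strands.
Gcg: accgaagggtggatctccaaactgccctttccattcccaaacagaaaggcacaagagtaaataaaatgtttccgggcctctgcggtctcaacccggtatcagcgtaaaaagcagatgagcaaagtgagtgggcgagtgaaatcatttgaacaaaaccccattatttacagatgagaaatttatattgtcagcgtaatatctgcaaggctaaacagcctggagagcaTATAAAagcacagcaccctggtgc
Sst: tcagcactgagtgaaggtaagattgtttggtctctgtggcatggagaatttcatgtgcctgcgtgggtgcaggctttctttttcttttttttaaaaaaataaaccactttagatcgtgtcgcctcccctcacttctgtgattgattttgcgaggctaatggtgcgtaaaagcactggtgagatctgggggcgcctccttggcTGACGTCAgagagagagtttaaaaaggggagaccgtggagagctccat
Ppy: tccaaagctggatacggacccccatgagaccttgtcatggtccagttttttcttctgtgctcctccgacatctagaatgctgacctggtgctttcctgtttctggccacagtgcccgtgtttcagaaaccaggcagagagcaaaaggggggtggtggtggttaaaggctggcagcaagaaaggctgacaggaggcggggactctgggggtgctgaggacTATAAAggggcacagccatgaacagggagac
Pyy: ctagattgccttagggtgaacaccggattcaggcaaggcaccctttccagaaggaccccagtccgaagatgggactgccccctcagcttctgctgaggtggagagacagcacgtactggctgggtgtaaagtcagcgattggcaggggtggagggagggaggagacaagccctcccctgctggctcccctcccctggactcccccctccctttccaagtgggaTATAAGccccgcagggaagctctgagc

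A TATAAA or TATAAG stood 24 bases before the start of Gcg, 31 before that of Ppy and 27 before that of Pyy, and 11.9% of the first listed promoters of 27025 genes held one within the same window. Sst had none and instead held TGACGTCA 48 bases before its start, which 1.6% of promoters held. The homeodomain core TAAT, searched on both strands with no overlap with the marked motifs, occurred 2 times in the Gcg window, 1 time in that of Sst and 0 times in those of Ppy and Pyy, and 55.3% of promoters held it. GC content was 44.8% for Gcg, 47.2% for Sst, 55.2% for Ppy and 61.2% for Pyy. These matches describe the letters of the windows only.

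The immature libraries were the shallowest, at 2393835 and 3448911 reads as recovered from the steps of low RPKM values, against 22063895 to 26824354 in the others. Markers of other cells also differed: 10 acinar genes summed to 9625 to 30067 RPKM in immature cells, to 131.5 to 189.7 in mature and to 272.9 to 2310 in double negative cells. For 10 endothelial genes the sum was 872.9 to 915.2 RPKM in immature cells, against 3.006 to 4.069 in mature and 209.4 to 221.2 in double negative cells. For 12 immune genes it was 1765 to 1803, 62.57 to 63.44 and 50.25 to 53.4 RPKM in the same order. The mature sum came mostly from Cd68 and C1qa, at means of 42.21 and 16.17 RPKM there, with Cd74 next at 2.434 RPKM. All members of these lists were above 0 in the immature libraries, including the defining genes Cdh5 and Ptprc. Their part in the hormone levels below was not tested. Beta cell markers summed to at least 72885 RPKM in immature cells and at least 246473 RPKM in mature ones, against at most 7019 RPKM in double negative cells, and Ins1 averaged 12690 RPKM in immature cells, against 48026 in mature and 535.4 in double negative cells.

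Immature beta cells carried less of every abundant non-beta hormone than double negative cells, and far more than mature beta cells. The order of the populations was the same for Gcg, Sst, Ppy and Pyy, with double negative cells highest, immature cells between and mature cells lowest. For none of these 4 genes did the libraries of any pair of populations overlap. The share of all genes without overlap was not counted, so this is not taken as particular to the hormones. In the comparisons below, 54.3% to 65.3% of all genes passed the test. In bulk samples such as these, fewer cells of a type and less RNA per cell cannot be told apart.

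Gcg, the glucagon gene, stood at 28018 and 19012 RPKM in immature cells, at 532 and 723 RPKM in mature cells and at 172629 and 166608 RPKM in double negative cells. The immature replicates differed most for this hormone, and replicate 1 was the higher of them. Sst, the somatostatin gene, stood at 3214 and 3543 RPKM in immature cells, at 211.3 and 326.6 RPKM in mature cells and at 19746 and 21309 RPKM in double negative cells. Its immature replicates lay close together, and their order was opposite to that of Gcg.

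Ppy, the pancreatic polypeptide gene, stood at 4485 and 5639 RPKM in immature cells, at 122.2 and 93.4 RPKM in mature cells and at 13237 and 14546 RPKM in double negative cells. Pyy, the peptide YY gene, stood at 2806 and 2907 RPKM in immature cells, at 48.7 and 62.1 RPKM in mature cells and at 5910 and 5873 RPKM in double negative cells. Pyy had the smallest gap between immature and double negative cells of the 4 and the tightest replicates. The values of these 4 genes rest on at least 4238 reads in each immature and 729 in each mature library.

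**Figure D1:**
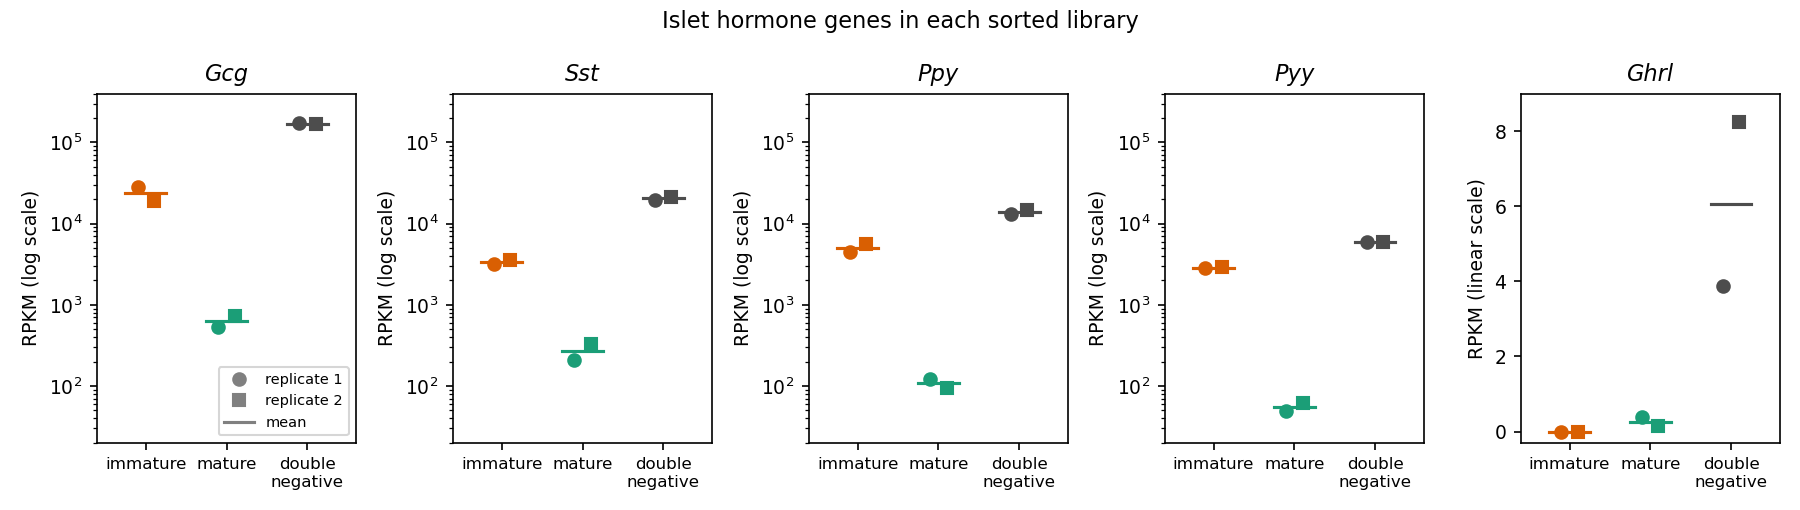
RPKM of each hormone gene in the 2 libraries of immature, mature and double negative cells, on a log scale except for Ghrl, with circles for replicate 1, squares for replicate 2 and lines for group means. For Gcg, Sst, Ppy and Pyy the immature libraries lie between the other populations, and Ghrl is listed at 0 in both immature libraries.

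Ghrl, the ghrelin gene, was detected mainly in double negative cells and at a low level. It is listed at 0 RPKM in both immature libraries, at 0.391 and 0.138 RPKM (10 and 4 reads) in mature cells and at 3.86 and 8.24 RPKM (92 and 202 reads) in double negative cells. At the immature depths 1 read of Ghrl equals 0.387 and 0.269 RPKM, and 3 reads, the limit that a count of 0 allows, equal 1.16 and 0.806 RPKM. At the mean level of double negative cells the immature libraries would have held 15.6 and 22.5 reads. Since both immature values are listed at 0, no fold of immature cells is given for Ghrl. A listed 0 need not mean a silent gene: of 13 mitochondrially encoded protein genes, which every cell uses, 5 are at 0 in all libraries. Ghrl differs from these in having reads in the mature and double negative libraries.

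The first comparison asked how the hormones of immature beta cells stand to those of double negative cells. All 5 fell below double negative cells in limma's test on log2(RPKM + 1) with Benjamini-Hochberg adjustment over 13367 genes, in which 56.6% of all genes passed, 10.6% lower and 45.9% higher. Gcg averaged 23515 ± 6368 RPKM in immature and 169618 ± 4257 RPKM in double negative cells (SD, n = 2 libraries each), a log2 difference of -2.88 (SE 0.24, limma adjusted p = 0.000263). That call was lost when genes of any level were kept in the fit (limma adjusted p = 0.0809). Sst averaged 3378 ± 233.1 RPKM in immature and 20528 ± 1105 RPKM in double negative cells, a log2 difference of -2.60 (SE 0.20, limma adjusted p = 0.00022). Ppy averaged 5062 ± 816 and 13891 ± 925.5 RPKM in the same order, with a log2 difference of -1.46 (SE 0.17, limma adjusted p = 0.000876). Pyy averaged 2856 ± 71.51 and 5892 ± 25.75 RPKM, with a log2 difference of -1.04 (SE 0.12, limma adjusted p = 0.000796). Ghrl passed as well (limma adjusted p = 0.000742), with a fitted size that depends on the 1 RPKM added before taking logs and is not given. The median log2 difference of all genes was 0.237, and -0.032 and -0.114 after median-ratio and quantile scaling, and all 5 genes were lower under each.

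The immature to double negative ratio was smaller for Gcg and Sst than for Ppy and Pyy. The mean immature level was 13.9% of the double negative level for Gcg, 16.5% for Sst, 36.4% for Ppy and 48.5% for Pyy. Over the 4 ways to set an immature against a double negative library, the ratio ran from 11% to 16.8% for Gcg and from 15.1% to 17.9% for Sst. It ran from 30.8% to 42.6% for Ppy and from 47.5% to 49.5% for Pyy. The ranges of Gcg and Sst overlapped each other, and those of Ppy and Pyy lay above both and did not overlap. Within replicate 1, labelled male, the ratio was 16.2% for Gcg, 16.3% for Sst, 33.9% for Ppy and 47.5% for Pyy. Within replicate 2, labelled female, it was 11.4%, 16.6%, 38.8% and 49.5% in the same order of genes, so the order of the hormones was the same in both.

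**Figure D2:**
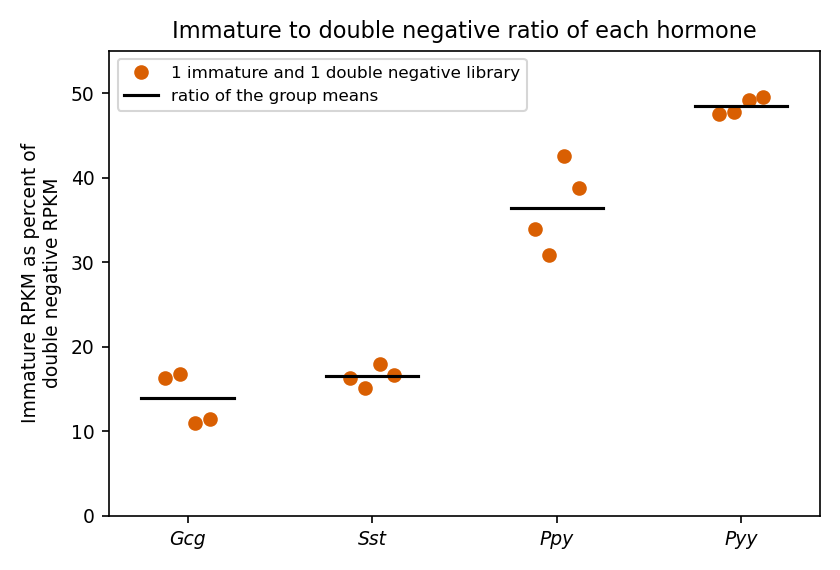
Immature RPKM as a percent of double negative RPKM for each hormone, with points for the 4 pairings of 1 immature and 1 double negative library and lines for the ratio of group means. Gcg and Sst lie between 11% and 17.9%, Ppy between 30.8% and 42.6% and Pyy between 47.5% and 49.5%.

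The differences between hormones were tested on their log ratio within each library. For the 4 abundant hormones a scaling factor of a library leaves this ratio as it is, since the 1 RPKM added is small beside their levels, but it does not for pairs with Ghrl. The spread of each ratio was moderated with limma's estimates for both genes, and 10 pairs of the 5 hormones were compared. The p-values of pairs were adjusted over the 13366 genes of each fit, and not over the 10 pairs. Since nearly all genes passed, this can change little: the limma-moderated p of Ppy minus Gcg was 0.0106 before it and 0.0107 after. Of all genes, 99.8% were higher relative to Gcg, 99.6% relative to Sst, 97.1% relative to Ppy and 94.5% relative to Pyy, and 0%, 0%, 0.172% and 0.681% were lower. Being higher than Gcg or Sst is therefore nothing particular to Ppy and Pyy, and the result of each pair is the size of its difference. Relative to Gcg, Pyy stood 1.83 log2 units higher in immature than in double negative cells (SE 0.22, limma-moderated adjusted p = 0.000201), a ratio 3.56 times as large with a 95% interval of 2.45 to 5.17. Ppy stood 1.41 higher than Gcg (SE 0.38, limma-moderated adjusted p = 0.0107), a factor of 2.66 with an interval of 1.39 to 5.11. The Ppy call was lost without immature replicate 2 (0.97, limma-moderated adjusted p = 0.0523) and without double negative replicate 1 (1.32, limma-moderated adjusted p = 0.0589), where the lone library left is assumed to vary like the other groups. Both calls relative to Gcg were also lost when genes of any level were kept in the fit (limma-moderated adjusted p = 0.108 for Pyy and 0.218 for Ppy). With only the 2 groups compared both passed, with larger SE of 0.46 for Pyy and 0.52 for Ppy (limma-moderated adjusted p = 0.0106 and 0.0415). After quantile normalization, which does not keep ratios within a library, Pyy minus Gcg was 0.38 and Ppy minus Gcg turned to -0.49 (limma-moderated adjusted p = 0.14 and 0.171).

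Against Sst the order was the same. Pyy stood 1.56 higher than Sst (SE 0.13, limma-moderated adjusted p = 4.81e-05), a factor of 2.95 with an interval of 2.37 to 3.67. Ppy stood 1.14 higher than Sst (SE 0.32, limma-moderated adjusted p = 0.0119), and the adjusted p was 0.0505 without immature replicate 2, 0.0574 without double negative replicate 1 and 0.0535 without double negative replicate 2. The other pairs of these 4 genes did not pass: Sst minus Gcg was 0.27 (95% interval -0.35 to 0.90, limma-moderated adjusted p = 0.321) and Pyy minus Ppy 0.42 (95% interval -0.19 to 1.03, limma-moderated adjusted p = 0.144). These intervals leave room for a factor of 1.86 between Sst and Gcg and of 2.04 between Pyy and Ppy. Without immature replicate 1, Sst minus Gcg was 0.62 (limma-moderated adjusted p = 0.0425), and without immature replicate 2 it was -0.08. The 4 pairs with Ghrl rest on its listed zeros and on the 1 RPKM added, so that no result is drawn from them.

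The make-up of the hormone transcripts also differed. Of the summed RPKM of the 5 genes, Gcg made up 72.7% and 61.1% in immature cells, 58.2% and 60% in mature cells and 81.6% and 80% in double negative cells. Ppy and Pyy together were the larger remainder in immature cells: Ppy held 11.6% and 18.1% and Pyy 7.28% and 9.35% there. In double negative cells Ppy held 6.26% and 6.98% and Pyy 2.79% and 2.82%. Sst held 8.34% and 11.4% in immature, 23.1% and 27.1% in mature and 9.34% and 10.2% in double negative libraries. The order of levels was Gcg, Sst, Ppy, Pyy in all mature and double negative libraries, while Ppy stood above Sst in both immature libraries. The log2 ratio of Ppy to Sst was 0.48 and 0.67 in immature libraries, -0.79 and -1.79 in mature and -0.58 and -0.55 in double negative libraries.

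**Figure D3:**
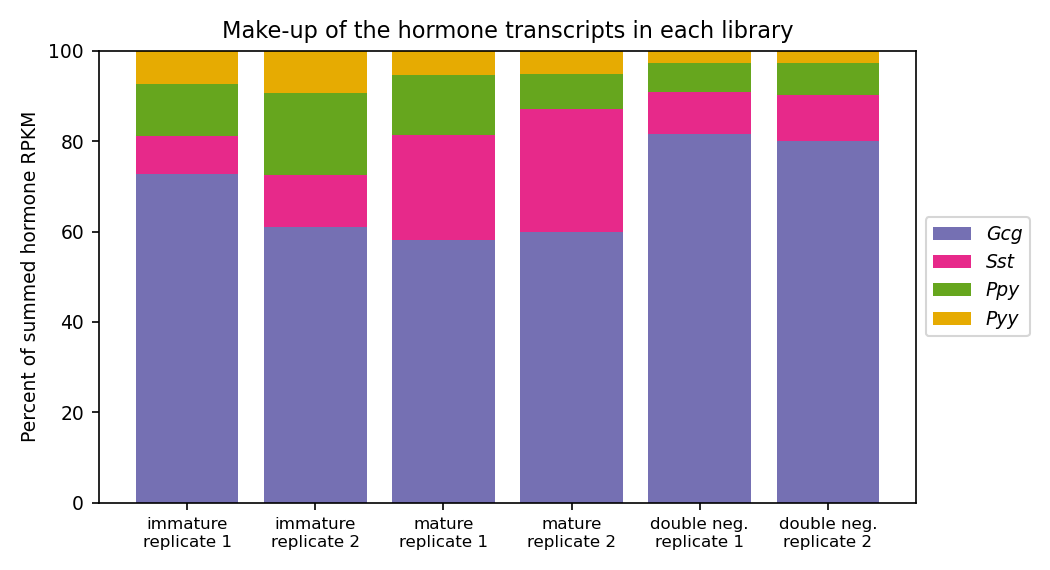
Share of each hormone gene in the summed RPKM of the hormone genes, by library, with Ghrl too small to draw. Gcg takes 61.1% and 72.7% in immature and about 80% or more in double negative libraries, and Sst takes its largest shares, 23.1% and 27.1%, in mature libraries.

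Together the 5 genes held 10.3% and 7.9% of all summed RPKM in immature cells, 0.192% and 0.246% in mature cells and 49.4% and 48.6% in double negative cells. The mean share was 9.09 ± 1.68% in immature and 49 ± 0.534% in double negative cells (SD, n = 2 libraries each, two-sided exact permutation p = 0.333, the smallest that 2 against 2 libraries allow).

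The second comparison set immature against mature beta cells. Of the 5 hormones, 4 rose and Ghrl did not pass, while 65.3% of all 13367 genes passed, 49.8% higher and 15.5% lower. The ratio of mean levels was 51.6 for Pyy, 47 for Ppy, 37.5 for Gcg and 12.6 for Sst. The log2 differences were 5.67 (SE 0.12) for Pyy, 5.54 (SE 0.17) for Ppy, 5.22 (SE 0.24) for Gcg and 3.68 (SE 0.20) for Sst, with limma adjusted p of 1.31e-06, 4.1e-06, 1.68e-05 and 3.61e-05. Sst stood apart here: relative to Gcg it was lower by -1.54 (SE 0.25, limma-moderated adjusted p = 0.00103), and Ppy and Pyy were higher than Sst by 1.87 and 1.99 (limma-moderated adjusted p = 0.00125 and 1.67e-05). Differences among Gcg, Ppy and Pyy were 0.13 to 0.46 and did not pass. Of all genes, 99% were lower relative to Gcg, 96.6% relative to Sst, 99.2% relative to Ppy and 99.3% relative to Pyy, and 0.239%, 1.2%, 0.232% and 0.187% were higher. Of genes called here, 76.2% were higher with the deposited scaling, 45.2% after median-ratio and 36.8% after quantile scaling, and the 4 hormones were higher in immature cells under each.

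The third comparison, of mature with double negative cells, shares libraries with both others. All 5 hormones were lower in mature cells, where 54.3% of all genes passed, 31.2% lower and 23.1% higher. The mature level was 0.37% of the double negative level for Gcg, 0.776% for Ppy, 0.94% for Pyy and 1.31% for Sst. Gcg had the largest absolute log2 difference of all 13367 genes, at -8.09 (SE 0.24, limma adjusted p = 8.18e-06), with Ppy at rank 2, Pyy at rank 3 and Sst at rank 6. These ranks are those of the deposited scaling: after quantile normalization Ppy differed by -7.66 and Gcg by -7.14. Ghrl averaged 0.264 ± 0.179 RPKM in mature cells, against 6.05 ± 3.09 in double negative cells (SD, n = 2 libraries each, limma adjusted p = 0.00109). Relative to Gcg, Sst stood 1.81 higher (SE 0.25, limma-moderated adjusted p = 0.000426), Pyy 1.38 and Ppy 1.09 (limma-moderated adjusted p = 0.000841 and 0.0303). Pyy minus Sst was -0.44 and Ppy minus Sst -0.73, and their calls depended on the fit. In the fit planned at first, which took the error of the subtracted hormone as known, limma adjusted p was 0.229 for Pyy and 0.0499 for Ppy. In the fit used here, chosen after seeing the data, it was 0.0151 for Pyy and 0.0624 for Ppy. Of all genes, 100% after rounding were higher relative to Gcg, to Ppy and to Pyy and 99.9% relative to Sst, and 0%, 0.00748%, 0.00748% and 0.015% were lower.

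**Figure D4:**
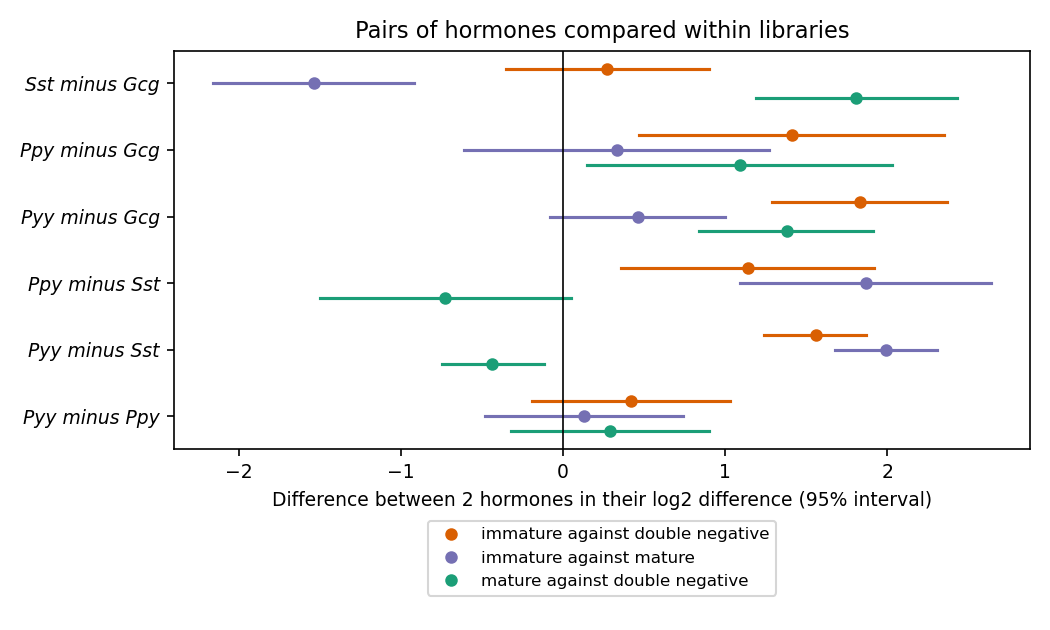
Difference between 2 hormones in their log2 difference, with 95% intervals, for immature against double negative, immature against mature and mature against double negative cells. Ppy and Pyy lie to the right of Sst for both comparisons of immature cells, and Pyy minus Ppy spans 0 in all 3.

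Other genes of alpha and delta cells were also lower in immature than in double negative cells. Of 10 alpha cell markers other than glucagon, 9 could be tested and all 9 fell, where 10.6% of all genes did, with a median log2 difference of -1.65 against 0.237 over all genes. The transport protein gene Ttr averaged 900.5 RPKM in immature and 5058 RPKM in double negative cells (log2 difference -2.51, SE 0.16). The homeobox gene Irx1 differed by -2.39 and the vitamin D binding protein gene Gc by -2.08. As a share of the double negative level, immature cells held 17.8% of Ttr, 17.1% of Irx1 and 23.6% of Gc, against 13.9% of Gcg. Relative to Gcg, 8 of 9 markers were higher, as were 99.8% of all genes, so this count says nothing particular of alpha cell genes.

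All 5 delta cell markers fell as well, with a median of -1.52, against the same 10.6% and 0.237 over all genes. The retinol-binding protein gene Rbp4 averaged 151.4 RPKM in immature cells, against 9.954 in mature and 575.2 in double negative cells, and its log2 difference from double negative cells was -1.92 (SE 0.10). Ghsr, the ghrelin receptor, which delta cells carry, differed by -1.68, the homeobox gene Hhex by -1.52 and the phosphatase gene Ptprz1 by -1.37. Immature cells held 26.3% of the double negative level of Rbp4, 22.1% of Ghsr and 32.7% of Hhex, against 16.5% of Sst. Against mature cells all 9 alpha and 5 delta markers were higher, as were 49.8% of all genes, with medians of 2.22 and 1.29. Of these, Dpp10, Ptprz1 and Spock3 turned lower after quantile scaling. The 1 RPKM added before taking logs shrinks such differences for genes under 1 RPKM in mature cells, as Hhex, Ghsr, Ptprz1 and Spock3 were. Immature cells held 1521% of the mature level of Rbp4, 2665% of Hhex, 1644% of Ghsr, 1794% of Ptprz1 and 3362% of Spock3. For Sst the share was 1256%. The shares of Ghsr, Ptprz1 and Spock3 rest on low levels.

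**Figure D5:**
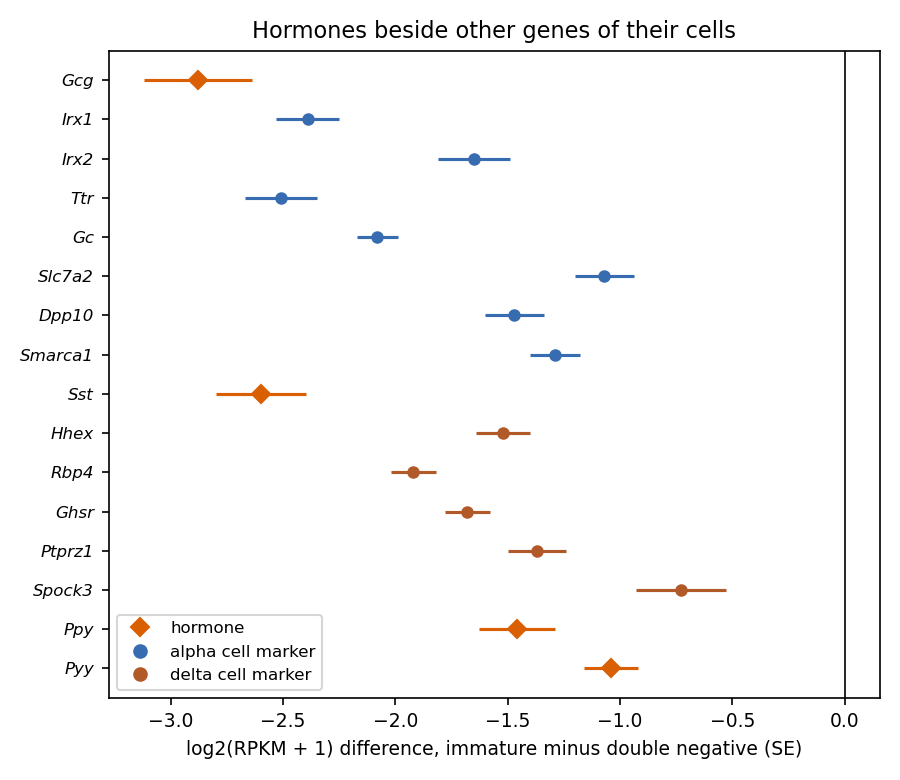
Difference in log2(RPKM + 1) between immature and double negative cells, with SE, for 4 hormones and for 7 of the 9 alpha and all 5 delta cell markers tested. Every gene shown lies below 0, from -2.88 for Gcg to -0.73 for Spock3.

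Transcription factors that act on hormone genes divided in this comparison. Among 12 tested there were 8 that fell, 2 that rose and 2 that did not pass, with a median of -0.72, where 10.6% of all genes were lower and 45.9% higher. Besides Hhex, Irx2 differed by -1.65 and the POU factor gene Pou3f4, which binds the glucagon promoter, by -1.53. Pax6, an activator of several hormone genes, averaged 33.29 RPKM in immature and 24.36 RPKM in double negative cells, and Rfx6, a factor of endocrine cells, averaged 29.49 and 22.19 RPKM. Nkx2-2 and Neurod1, shared by endocrine cells, differed by 0.10 and -0.05 (limma adjusted p = 0.235 and 0.402). Immature cells had 8 of the 12 higher and 2 lower than mature cells, where 49.8% of all genes were higher and 15.5% lower. Mature cells had 9 lower and 2 higher than double negative cells, where 31.2% of all genes were lower and 23.1% higher.

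Enzymes and helpers of hormone processing were mostly lower in immature cells: of 7 tested, 5 fell and 2 rose against double negative cells, where 10.6% of all genes were lower and 45.9% higher. Pcsk1, the convertase that beta cells use for proinsulin, averaged 122.2 RPKM in immature cells, against 394.1 in mature and 9.631 in double negative cells. Pcsk2, which releases glucagon from its precursor, averaged 350.2 RPKM in immature cells, against 534 in mature and 637.3 in double negative cells. Its chaperone gene Scg5 differed by -0.91 between immature and double negative cells, and Pcsk1n, which encodes a convertase inhibitor, by -1.44. Mboat4, the enzyme that adds the fatty acid to ghrelin, is listed at 0 in both immature libraries and averaged 0.364 RPKM in double negative cells, too low to be tested.

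Of 13 receptors for these hormones 6 could be tested, and against double negative cells 4 fell and 2 rose, where 10.6% of all genes were lower and 45.9% higher. Glp1r, the receptor for glucagon-like peptide 1, averaged 60.81 RPKM in immature cells, against 74.86 in mature and 7.244 in double negative cells, and the glucagon receptor gene Gcgr 3.247, 3.263 and 0.4155 RPKM in the same order. Sstr2, the somatostatin receptor of alpha cells, averaged 3.362 RPKM in immature cells, against 0.1263 in mature and 15.1 in double negative cells. Sstr3, found in beta cells, averaged 22.55, 34.96 and 25.78 RPKM. The receptors of pancreatic polypeptide and peptide YY, Npy1r, Npy2r, Npy4r and Npy5r, stayed under 1 RPKM in every library.

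Among 7 relatives of the hormone genes, 3 could be tested. Npy, the founding member of the family of Ppy and Pyy, averaged 29.14 RPKM in immature cells, against 109.1 in mature and 2.867 in double negative cells, an order of populations that none of the 5 hormones had. Vip, a relative of glucagon that nerve fibres carry, stood at 8.754 and 57.34 RPKM in immature cells, at 0.138 and 0 RPKM in mature cells and at 0.148 and 0.432 RPKM in double negative cells. It rose against double negative cells by 4.22 (SE 0.77, limma adjusted p = 0.00537), with a wide gap between the immature replicates, and the glial marker Sox10 averaged 2.11 RPKM in immature and 0.1484 RPKM in double negative cells.

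The genes closest in pattern to each hormone were found by the root mean square difference of centred log2 profiles over the 6 libraries, among 8701 candidates. Ppy and Pyy were each other's nearest, at 0.29. The nearest to Sst were Rbp4 at 0.33, Pdk4, which encodes a kinase that restrains pyruvate dehydrogenase, at 0.34, and Eef1a2, a translation elongation factor gene, at 0.39. Gcg had no candidate within 0.70, where Ppy was the nearest, followed by Pyy at 0.80 and Sst at 0.83. Eef1a2 was also second for Ppy and Pyy, at 0.62 and 0.64, and it averaged 39.1 RPKM in immature cells, against 1.267 in mature and 143.5 in double negative cells. The nearest to Ghrl were Fam81a, the immunoglobulin segment gene Ighv1-11 and Pappa2, a protease gene, at 0.50 to 0.52, a measure that its low counts make coarse.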

How the data were processed

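RNA from 6 libraries of sorted islet cells was sequenced, and the authors deposited 1 table of RPKM values with 46959 rows and 6 columns, whose names are the titles of the libraries. STAR 2.5, featureCounts, edgeR 3.14.0 and the build GRCm38.p4 are named per the submitters' processing notes, with no settings, and the sources used here do not give the annotation release. Since RPKM is relative to a total, abundant transcripts lower the values of the rest.

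Reads were recovered from RPKM steps and GENCODE M21 exon lengths: 78.1% to 83.8% of low values (under 200 reads) were whole within 0.02 reads. Limits from counts cover counting error only.

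Genes with at least 1 RPKM in at least 2 libraries were tested with limma 3.58.1 (R 4.3.3) on log2(RPKM + 1), group means over 6 libraries with an intensity trend and 3 residual degrees of freedom, at an adjusted p of 0.05. This scale understates changes of low genes. The labels give the 2 libraries of a group different sexes, hence different animals, but the series' description speaks of pools of females. If the labels hold, the spread within a group includes any difference between the sexes. If not, it may be technical. The p-values measure only that spread. For pairs of hormones the planned fit treated the subtracted hormone's error as known. The tests in the text therefore moderate the ratio's variance toward the sum of both genes' limma priors, a choice made after seeing the data. Procedures were tested on simulated data.

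Members, gene lists and tests were chosen with earlier results of these data known. Named genes were the hormones, up to 4 members per list with the largest differences from double negative cells among those past the threshold, and the 3 nearest profiles per hormone. Others were named for their role after their values were seen, and values of some list members are not reported here. Alternatives are given in the closing section.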

Additional observations from a re-analysis of the deposited data

How the results depend on the processing

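All 15 log2 differences of a hormone between 2 populations kept their direction, and 205 of 207 re-fits kept their side of the threshold. The exceptions were Gcg for immature against double negative cells with no filter (adjusted p = 0.0809) and Ghrl for immature against mature cells with a pseudocount of 0.1 (adjusted p = 0.0203), all with limma. Without 1 library, called genes ranged from 5060 to 8848, 6335 to 9810 and 4767 to 8982 for immature against double negative, immature against mature and mature against double negative cells, where all libraries gave 7563, 8728 and 7256. For immature against double negative cells 81.2% of calls were higher with the deposited scaling, 49.6% after median-ratio and 39.7% after quantile scaling.

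For hormone pairs without Ghrl in immature against double negative cells, 85 of 90 re-fits kept the direction and call of the planned fit. The 90 include, for each pair, the fit used in the text. That fit was less stable: with 1 library left out it lost further calls of Ppy minus Gcg and Ppy minus Sst, as given above. In the planned fit, quantile normalization, which does not keep ratios within a library, turned Sst minus Gcg to -1.47 and Ppy minus Gcg to -0.49. It left Pyy minus Gcg at 0.38 (limma adjusted p = 0.149) and moved Pyy minus Ppy to 0.87 past the threshold. Leaving out 1 library gave Sst minus Gcg of -0.08 to 0.62. Pairs with Ghrl rest on listed zeros, so that their fitted values are no folds, and moved more: Ghrl minus Gcg was -2.97 with a pseudocount of 0.1, -0.87 with quantile normalization and -0.36 to 0.62 without 1 library. Ghrl minus Sst was -3.24, 0.60 and -0.55 to 0.27 in the same order, and 0.12 with median-ratio rescaling. Ghrl minus Ppy was -0.38 with quantile normalization and -1.68 to -0.89 without 1 library. The cause of these shifts was not tested. With both hormones' errors estimated, no call of the 10 pairs differed from the planned fit for immature against double negative or mature cells. For mature against double negative cells Pyy minus Sst passed in that version alone (limma-moderated adjusted p = 0.0151, 0.229 as planned) and Ppy minus Sst as planned alone (0.0624, 0.0499 as planned). In that version, for immature against double negative cells without the filter on low values, Ppy minus Gcg and Pyy minus Gcg had limma-moderated adjusted p = 0.218 and 0.108, and after quantile normalization 0.171 and 0.14.

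Hormone shares kept their direction in all 15 re-runs. With the replicate block 7073 genes were called between immature and double negative, 8407 between immature and mature and 6803 between mature and double negative cells, and no hormone or pair call changed. Deviations of same-numbered libraries correlated at -0.009, 0.14 and -0.112 between populations, so the numbers were not taken to pair them. At the depth of the immature libraries Ghrl could not be resolved below 1.16 and 0.806 RPKM.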
